A study of Mus musculus with 7 samples.

Results

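Alad, Hdhd3, Pole3, Orm2, Prpf4, Cdc26, Fkbp15, Slc31a1, Slc31a2 and Zfp37 are 10 protein-coding genes that lie within 2 Mb of Tnc on mouse chromosome 4. They were taken by symbol from the Tnc-/- count files and by the same Ensembl identifier from the WT files, and are 10 of the 56854 gene identifiers in all files. They were chosen by their position near Tnc and by their log2 fold change between the genotypes, which was already seen, so their levels and fold changes are given as a description, without a test. The libraries were made from whole shoulder joints of mice 2 weeks after surgical repair of the supraspinatus tendon, a tendon of the rotator cuff, in the left shoulder. Of the 7 libraries, 3 came from wild-type (WT) mice and 4 from mice with a deletion of Tnc, the gene of the matrix glycoprotein Tenascin C (Tnc-/-). Both groups had the repair, so no library shows an unoperated joint. Strain, breeding scheme, age and the construct of the Tnc allele are not given in the sources used here, and nothing more is said on how the animals of a group relate. The count files hold no genotype calls and no copy number, so whether sequence of another strain around the Tnc allele, or a different number of gene copies, accompanies any difference below was not tested. The count files of the 2 genotypes list different sets of identifiers, as given below. No label names a counting run or batch, and any difference in how reads were counted cannot be told apart from the genotypes.

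Alad encodes delta-aminolevulinate dehydratase, the zinc enzyme of the second step of haem synthesis, known for its inhibition by lead and for extra gene copies in some inbred mouse strains. Hdhd3 encodes a protein of the haloacid dehalogenase (HAD) family of hydrolases, and Orm2 an orosomucoid, a plasma protein of the acute phase made mostly in liver. Pole3 is a histone-fold subunit of DNA polymerase epsilon and of the CHRAC chromatin remodelling complex, Prpf4 a protein of the U4/U6 particle of the spliceosome, and Cdc26 a small subunit of the anaphase-promoting complex, the ubiquitin ligase of mitotic exit. Slc31a1 encodes the high-affinity copper importer of the plasma membrane and Slc31a2 its relative in internal membranes. Fkbp15 encodes a member of the FK506-binding protein family linked to endosome transport, and Zfp37 a zinc-finger protein.

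Library size ran from 13.464 to 18.504 M (mega) gene counts in WT and from 19.25 to 28.191 M in Tnc-/-. Levels are in CPM, counts per M of the library's counts in tested genes, scaled by the TMM method of edgeR. WT libraries 2 and 3 stood apart: the mean log2 CPM of tested genes spanning over 300 kb was 6.25 and 5.85 in them, 3.27 in WT library 1 and 2.28 to 2.41 in Tnc-/-. Fold changes of the members are therefore also given with WT library 1 alone against Tnc-/- or with that long-gene level as a covariate, and most called lists with the counts in those fits. The covariate was higher in every WT than in every Tnc-/- library, so it takes up part of any genotype difference. A call lost or a fold change shrunk with it does not show that the genotypes are alike. "Without single libraries" means leaving out each of the 7 in turn. Collagen, cartilage, bone and muscle markers were present in all libraries, whereas Scx, Acp5 and Itgam, markers of tendon, osteoclasts and myeloid cells, were listed at 0 in all 7, so a listed 0 cannot be read as an unexpressed gene. By edgeR 2 of 12 muscle and 1 of 9 bone markers tested were higher and 2 of 9 tendon markers lower, beside 29.0% called of all genes tested, 10.3% higher and 18.7% lower. With WT library 1 alone, and with the covariate, edgeR called 0 in each of these lists, with 1 to 3 per list at an unadjusted p under 0.05. Without single libraries 2 to 10 muscle, 0 to 3 bone and 0 to 1 tendon markers were called, with 10 muscle and 3 bone markers without WT library 1. DESeq2 with Benjamini-Hochberg adjustment called 6 muscle markers, and limma voom 0 bone and tendon markers (2 and 3 at an unadjusted p under 0.05). Of 10 cartilage and 9 macrophage markers 0 were called by edgeR, with 1 and 0 at an unadjusted p under 0.05 (1 and 0 called by DESeq2, 0 by limma voom). Without WT library 1, 7 macrophage markers were called, all higher, and without Tnc-/- library 4, 1 cartilage marker was lower. Tnc itself had 8137, 4394 and 5386 counts in WT and 902, 698, 712 and 1051 in Tnc-/-, or 352 ± 75.5 CPM (SD, n = 3) against 41.8 ± 9.26 CPM (SD, n = 4). Every Tnc-/- library lay below every WT library (log2 fold change -3.08, SE 0.21, edgeR adjusted p = 0.0002805).

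In GENCODE M21 (assembly GRCm38) all 10 genes lie on the same side of Tnc. From the far end the order is Zfp37, Slc31a2, Fkbp15, Slc31a1, Cdc26, Prpf4, Hdhd3, Alad and Pole3, at distances from 1.73 Mb (Zfp37) to 1.43 Mb (Pole3), and then Orm2 at 0.594 Mb. Hdhd3, Alad and Pole3 lie in a row on the minus strand, with 5.7 kb between Hdhd3 and Alad and 2.73 kb between Alad and Pole3. Fkbp15 and Slc31a1 start head to head 0.178 kb apart, and so do Cdc26 and Prpf4, 0.154 kb apart. Slc31a1 and Cdc26 run towards each other and their spans overlap by 8.12 kb, but no exon of any of the 10 genes overlaps an exon of another gene in this annotation.

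All 10 genes have a start-site window in RefSeq (assembly GRCm38.p6), which runs from 250 bases before to 50 bases after the start, 12 windows in all. The windows of Alad are shown first, since Alad had the largest rise among the members that were well counted in every library. Both are on the minus strand of chromosome 4, window 1 at chr4:62520014-62520313 and window 2 at chr4:62519860-62520159, and they share 146 bases. Capitals mark the motifs GATA and CACCC, searched on both strands because they are the usual letters of erythroid regulatory elements.
Alad window 1: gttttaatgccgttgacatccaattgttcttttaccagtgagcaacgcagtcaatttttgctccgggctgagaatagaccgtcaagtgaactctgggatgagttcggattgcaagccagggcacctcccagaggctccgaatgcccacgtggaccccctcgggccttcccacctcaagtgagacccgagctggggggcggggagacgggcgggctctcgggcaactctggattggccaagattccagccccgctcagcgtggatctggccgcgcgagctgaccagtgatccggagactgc
Alad window 2: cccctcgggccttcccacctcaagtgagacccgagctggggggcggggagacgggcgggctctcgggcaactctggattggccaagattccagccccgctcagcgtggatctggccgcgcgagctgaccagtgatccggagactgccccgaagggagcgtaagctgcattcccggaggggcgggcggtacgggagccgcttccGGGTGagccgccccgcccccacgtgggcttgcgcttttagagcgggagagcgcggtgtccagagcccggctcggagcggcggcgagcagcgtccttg
Neither window of Alad holds GATA, and the only CACCC match is read as GGGTG in window 2. Of 32851 windows of this length, 57.9% hold GATA and 57.5% hold CACCC, so either motif is common among windows of this length. Among the 10 genes, 5 have GATA in a window and 5 have CACCC.

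The windows of the head-to-head pairs are shown because the start-site windows of the 2 genes of each pair overlap. The Prpf4 window (chr4:62408533-62408832, plus strand) has in capitals the 257 bases it shares with the window of Cdc26, and the Slc31a1 window (chr4:62360451-62360750, plus strand) the 204 bases it shares with that of Fkbp15.
Prpf4: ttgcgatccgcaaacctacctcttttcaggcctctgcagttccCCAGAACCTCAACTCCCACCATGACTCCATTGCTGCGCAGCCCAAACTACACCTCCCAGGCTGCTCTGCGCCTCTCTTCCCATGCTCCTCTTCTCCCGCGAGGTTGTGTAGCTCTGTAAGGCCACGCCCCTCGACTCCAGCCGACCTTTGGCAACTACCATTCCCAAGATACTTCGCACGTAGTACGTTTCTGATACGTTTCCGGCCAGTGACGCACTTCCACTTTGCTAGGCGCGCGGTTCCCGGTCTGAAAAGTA
Slc31a1: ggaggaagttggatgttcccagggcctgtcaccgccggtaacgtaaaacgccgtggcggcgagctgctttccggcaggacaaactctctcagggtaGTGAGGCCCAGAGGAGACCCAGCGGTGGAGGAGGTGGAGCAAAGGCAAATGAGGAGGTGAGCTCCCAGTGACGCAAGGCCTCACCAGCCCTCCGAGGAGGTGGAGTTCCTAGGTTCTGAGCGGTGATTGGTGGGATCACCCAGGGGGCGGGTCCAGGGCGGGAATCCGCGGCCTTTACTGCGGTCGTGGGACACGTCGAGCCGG
The window of Orm2 (chr4:63362199-63362498, plus strand) is set beside that of its neighbour Orm3 (chr4:63355908-63356207, plus strand), with TTGCNCAA, the letters of a C/EBP-type site, in capitals.
Orm2: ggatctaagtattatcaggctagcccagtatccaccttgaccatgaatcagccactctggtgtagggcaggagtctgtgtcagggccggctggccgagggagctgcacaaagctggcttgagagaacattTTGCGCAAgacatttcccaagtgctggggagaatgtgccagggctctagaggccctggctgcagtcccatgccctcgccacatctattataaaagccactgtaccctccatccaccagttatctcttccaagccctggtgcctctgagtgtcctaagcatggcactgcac
Orm3: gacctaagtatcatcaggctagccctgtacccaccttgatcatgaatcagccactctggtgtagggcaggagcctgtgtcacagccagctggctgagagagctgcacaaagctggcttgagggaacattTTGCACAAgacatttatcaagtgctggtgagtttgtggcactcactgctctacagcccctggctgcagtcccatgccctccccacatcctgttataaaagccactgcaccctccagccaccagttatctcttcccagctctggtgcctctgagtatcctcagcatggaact
Aligned end to end, the Orm2 and Orm3 windows are identical at 264 of 305 columns (86.6%). TTGCNCAA is in 2.94% of all windows and, among the 10 genes, in that of Orm2 only.

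Alad (ENSMUSG00000028393) had 1091, 523 and 595 counts in WT and 11392, 4899, 5091 and 4995 in Tnc-/-. As CPM these were 58.6, 34.8 and 36.1 in WT and 421, 273, 285 and 261 in Tnc-/-. The groups were far apart: the lowest Tnc-/- library lay above the highest WT library by more than the whole range of WT. The means were 43.2 ± 13.4 CPM (SD, n = 3) and 310.1 ± 74.8 CPM (SD, n = 4), a ratio of 7.19, and the log2 fold change was 2.84 (SE 0.27). Of all 17791 genes tested, 0.528% had a larger log2 fold change. Against WT library 1 alone the ratio was 5.30 and the log2 fold change 2.40 (SE 0.30), and with the long-gene covariate it was 2.15 (SE 0.36). Single Tnc-/- libraries lay 9.76, 6.33, 6.61 and 6.06 times above the WT mean, Tnc-/- library 1 being the highest. In a bulk sample, more cells of a type and more RNA per cell cannot be told apart.

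Of the other enzymes of haem synthesis, 7 were tested. In the fit of all libraries 6 were higher in Tnc-/-, each by less than Alad, and 0 lower (edgeR, adjusted p under 0.05), with a median log2 fold change of 0.84; over all genes tested 29.0% were called, with a median near 0. Ppox, an enzyme of the last steps, had 65.1, 32.5 and 36.5 CPM in WT and 123, 76.2, 89.5 and 79.9 CPM in Tnc-/- (log2 fold change 1.04, SE 0.27, adjusted p = 0.02258). Fech, which inserts the iron, was not called (0.40, SE 0.20, adjusted p = 0.1618), and Alas2, the erythroid first enzyme, was listed at 0 in all 7 libraries. These calls were lost with WT library 1 alone and with the long-gene covariate, where edgeR called 0 of 7 and 0 of 7 had an unadjusted p under 0.05. The list's median was then 0.36 and 0.11. Leaving out WT library 2 or 3 or Tnc-/- library 3 left 0 calls by edgeR, but the median stayed at 0.71, 0.71 and 0.86, with 6, 5 and 6 genes at an unadjusted p under 0.05. Leaving out Tnc-/- library 1, 2 or 4 left 1 or 2 calls, with medians of 0.67 to 0.90. Without WT library 1 all 7 were called higher, with a median of 1.25. DESeq2 with Benjamini-Hochberg adjustment called 6, whereas limma voom, and DESeq2 with Bonferroni adjustment, called 0, each with 6 genes at an unadjusted p under 0.05.

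The ratio of Alad to other enzymes of the pathway needs no library scaling, and it separated the groups. Alad was listed with its larger rise already seen, so this separation follows from the choice and is description only. Alad was 0.900, 1.07 and 0.990 times Ppox in WT and 3.43, 3.58, 3.19 and 3.27 times Ppox in Tnc-/-. Against Urod, the fifth enzyme, it was 0.606, 0.624 and 0.652 in WT and 2.63, 2.54, 2.40 and 2.40 in Tnc-/-. Against Ppox and Urod the gap between the genotypes was several times the width within either. Against Alas1, the first enzyme outside erythroid cells, the ratio was 0.545, 0.440 and 0.394 in WT and 3.24, 1.84, 2.21 and 2.40 in Tnc-/-, so it was wider within Tnc-/- and the groups again did not overlap.

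Markers of red cell precursors moved in the same direction. The summed level of the 17 erythroid markers found of 18 listed was 5260 to 10050 CPM in WT and 14270 to 27850 CPM in Tnc-/-, with Alas2 at 0. Of 16 tested, 10 were higher and 0 lower (edgeR), against 2 with WT library 1 alone, 0 with the covariate (2 at an unadjusted p under 0.05), 4 by limma voom and 3 by DESeq2 with Bonferroni adjustment. Without single libraries the count was 2 to 15, with 3 and 2 without WT library 2 and 3, 6 without Tnc-/- library 1 or 3, and 15 without WT library 1. The median of 1.23 was 0.74 with WT library 1 alone and 0.42 with the covariate, whereas it was 0.999 without WT library 2 and 1.20 without WT library 3, with 11 and 10 genes at an unadjusted p under 0.05. Alad per 1000 CPM of erythroid markers was 5.82, 6.61 and 5.64 in WT and 15.1, 16.9, 17.0 and 18.3 in Tnc-/-, so it was also higher relative to these markers in every Tnc-/- library. That too follows from the choice of Alad and is description only.

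**Figure D1:**
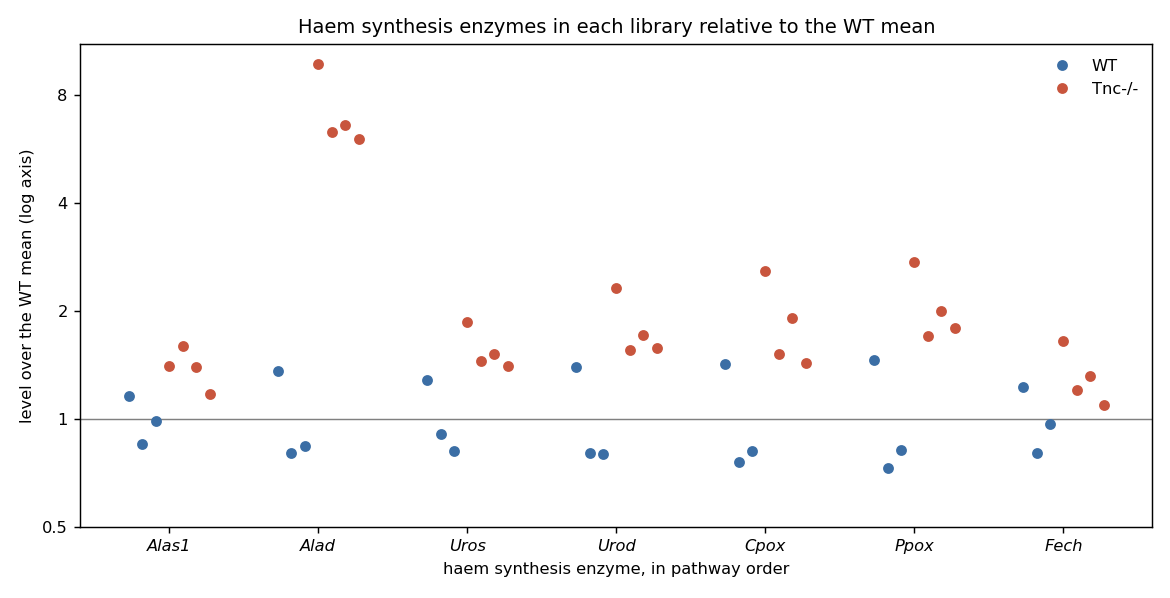
Level of 7 haem synthesis enzymes in each library divided by its WT mean (vertical log axis, no unit), with the enzymes in pathway order on the horizontal axis; blue points are the 3 WT libraries and red points the 4 Tnc-/- libraries. Alad lies 6.06 to 9.76 times above its WT mean in Tnc-/-, well above the points of the other enzymes.

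Hdhd3 (ENSMUSG00000038422), next to Alad, was a low-count gene with 21, 18 and 50 counts in WT and 256, 201, 155 and 263 in Tnc-/-. Its levels were 1.13, 1.20 and 3.04 CPM in WT and 9.47, 11.2, 8.68 and 13.8 CPM in Tnc-/-. The groups did not overlap, and WT library 3 was the highest of its group. The means were 1.79 ± 1.08 CPM (SD, n = 3) and 10.8 ± 2.25 CPM (SD, n = 4), and the log2 fold change was 2.59 (SE 0.48). With WT library 1 alone it was 3.24 (SE 0.42) and with the covariate 3.38 (SE 0.80), so it did not shrink in either. Per kilobase of exon, Hdhd3 stood far below Alad in both groups, at 1.31 against 23.1 CPM per kb in WT and 7.89 against 165.8 CPM per kb in Tnc-/-. Hdhd3 was 1.93 to 8.40% of Alad in CPM in WT and 2.25 to 5.27% in Tnc-/-, ranges that overlap.

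Of the other HAD-type hydrolases on the list, 8 were tested, 2 were higher and 1 lower, with a median log2 fold change of 0.53. Hdhd2 rose from 12.8, 10.8 and 7.05 CPM in WT to 39.7, 47.6, 36.8 and 38.3 CPM in Tnc-/- (1.99, SE 0.23, adjusted p = 0.00479), and its call was kept in each of the alternatives in which it was tested. Pgp, the phosphoglycolate phosphatase, was higher by 0.55 (SE 0.14, adjusted p = 0.01929), and that call was lost in 10 of 19 alternatives. With WT library 1 alone, and with the covariate, 1 of the 8 genes was called, and without single libraries 1 to 7, with 7 without WT library 1.

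Pole3 (ENSMUSG00000028394), on the other side of Alad, differed far less. Its levels were 34.7, 23.7 and 31.2 CPM in WT and 46.5, 40.8, 41.5 and 43.8 CPM in Tnc-/-. The groups did not overlap, and the highest WT and the lowest Tnc-/- library were close. The log2 fold change was 0.53 (SE 0.16), 0.31 (SE 0.17) with WT library 1 alone and 0.16 (SE 0.24) with the covariate. Of its 6 tested partners in polymerase epsilon and CHRAC, 1 was higher and 0 were lower (edgeR; 1 at an unadjusted p under 0.05), with a median of 0.09. With library totals 0 were higher and 1 lower, with a median of -0.15. Without single libraries the count was 0 or, without WT library 1, 2 (edgeR; 1 or 2 at an unadjusted p under 0.05). The gene called higher was Chrac1, the histone-fold partner in CHRAC (0.59, SE 0.17, adjusted p = 0.03247), and its call was lost with WT library 1 alone and with the covariate.

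Orm2 (ENSMUSG00000061540) had 1, 0 and 1 counts in WT and 229, 84, 122 and 89 in Tnc-/-. Its levels were 0.0537, 0 and 0.0607 CPM in WT and 8.47, 4.68, 6.83 and 4.66 CPM in Tnc-/-. With 2 counts over the WT group, the ratio of the pooled levels was 160.3 with a 95% exact counting interval of 44.1 to 1327, which covers counting error only. Orm2 passed the filter on low counts through the Tnc-/- libraries alone, so it had to differ, and its fitted log2 fold change is no bound. Its transcript is 91.0% identical to that of Orm1 over 775 bases, so reads could be split between the copies. Orm1 was counted in every library, at 3.49, 3.32 and 2.49 CPM in WT and 7.80, 8.41, 7.00 and 4.55 CPM in Tnc-/- (1.16, SE 0.39, adjusted p = 0.0553), and Orm3 stayed at 0 to 0.669 CPM. The 3 genes differed: Orm2 was nearly uncounted in WT, where Orm1 was counted, and Orm3 was low in both groups.

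Of the 10 acute phase genes tested besides Orm2, 2 were higher and 2 lower, with a median of 0.27. Hp, which binds free haemoglobin, rose by 0.85 (SE 0.19, adjusted p = 0.01308). Hpx, which binds free haem, had 0.322, 12.9 and 14.7 CPM in WT and 0.501 to 0.628 CPM in Tnc-/- (-4.0, SE 0.98, adjusted p = 0.0184), so the groups overlapped through WT library 1, and the fold change was 0.82 against WT library 1 alone. With WT library 1 alone 0 of 13 were called, and with the covariate 0 of 10 (edgeR; 3 and 2 at an unadjusted p under 0.05). Without single libraries 0 to 7 were called, with 0 without WT library 3 and 7 without WT library 1. Hepatocyte markers were low throughout, with 8 of 9 found, a summed level of 2.63 to 22.5 CPM in WT and 2.63 to 6.29 CPM in Tnc-/-, and Fgb at 0. The 13 neutrophil and marrow myeloid markers, cells that hold some acute phase proteins in their granules, summed to 3043 to 6384 CPM in WT and 7091 to 12020 CPM in Tnc-/-. Of them 10 were higher and 0 lower (edgeR), against 1 with WT library 1 alone, 0 with the covariate (0 at an unadjusted p under 0.05) and 3 by limma voom. Without single libraries the count was 2 to 13, with 2 without WT library 2 or 3 or Tnc-/- library 1 or 3, and 13 without WT library 1. The median of 1.16 was 0.54 with WT library 1 alone and 0.17 with the covariate, whereas it stayed at 0.94 to 1.16 in the 4 fits with 2 calls, with 10 to 12 genes at an unadjusted p under 0.05. Their part in the Orm2 difference was not tested.

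**Figure D2:**
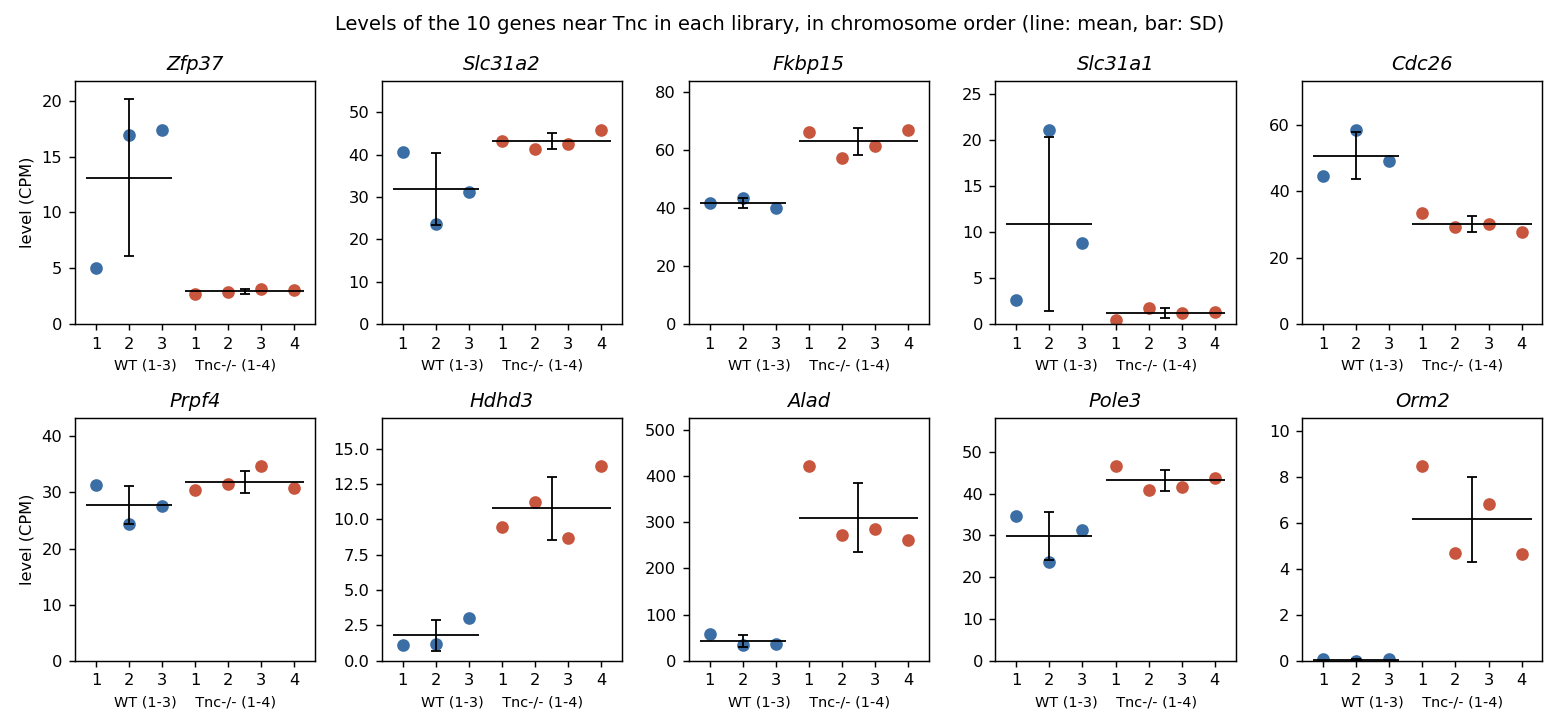
Level in CPM (vertical axis) of each of the 10 genes in each library (horizontal axis), 1 panel per gene in chromosome order, with blue points for WT, red points for Tnc-/-, lines for group means and bars for the SD. Alad, Hdhd3 and Orm2 are far higher in Tnc-/-, and the WT means of Zfp37 and Slc31a1 are carried by WT libraries 2 and 3.

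Fkbp15 (ENSMUSG00000066151) was the steadiest of the smaller differences. Its levels were 41.7, 43.5 and 40.1 CPM in WT and 66.3, 57.2, 61.6 and 67.2 CPM in Tnc-/-. The means of 41.8 ± 1.69 CPM (SD, n = 3) and 63.1 ± 4.61 CPM (SD, n = 4) differed 1.51 times, and the groups did not overlap. The log2 fold change was 0.60 (SE 0.12), 0.59 (SE 0.17) with WT library 1 alone and 0.60 (SE 0.22) with the covariate. It was 0.35 with scaling by library totals, a scaling that shifts the median of all genes to -0.24.

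Slc31a1 (ENSMUSG00000066150), which shares its start region with Fkbp15, went the other way. It had 48, 318 and 145 counts in WT and 13, 32, 21 and 25 in Tnc-/-, or 2.58, 21.1 and 8.81 CPM against 0.481, 1.78, 1.18 and 1.31 CPM. The groups did not overlap, but WT libraries 2 and 3 together stood 2.33 above WT library 1 on the log2(CPM + 0.5) scale, and these are the libraries with the raised long-gene level. The log2 fold change of -3.19 (SE 0.73) was -1.14 (SE 0.61) with WT library 1 alone and -0.18 (SE 0.73) with the covariate. Slc31a2 (ENSMUSG00000066152) was at 40.7, 23.7 and 31.2 CPM in WT and 43.3, 41.4, 42.4 and 45.9 CPM in Tnc-/-. WT library 1 lay just below the lowest Tnc-/- library. Its log2 fold change was 0.44 (SE 0.18), 0.08 (SE 0.16) with WT library 1 alone and -0.14 (SE 0.23) with the covariate, so the direction turned.

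Of the 15 other copper genes tested, 2 were higher and 2 lower. Cox17, among the higher, had to differ, so it is not read as a call. The median was -0.18, also with WT set to 3 counts over the group for Cox17. Cox17, the copper chaperone of the respiratory chain, was listed at 0 in all 3 WT libraries and had 41.8 to 48.3 CPM in Tnc-/-. It passed the filter on low counts through the Tnc-/- libraries alone, so it had to differ and no fold or test is given for it. Heph, a copper-dependent ferroxidase, fell by 0.91 (SE 0.27, edgeR adjusted p = 0.03351). Its Tnc-/- mean was 0.53 times the WT mean and 0.67 times WT library 1. With the covariate its call was lost, at a fold change of -0.46, and with Cox17 left aside no gene of the list was called. Without single libraries no gene besides Cox17 was called either, except without WT library 1, where 8 genes were called, Cox17 among them.

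Cdc26 (ENSMUSG00000066149) was lower in Tnc-/-, at 44.7, 58.6 and 49.0 CPM in WT and 33.4, 29.2, 30.2 and 27.7 CPM in Tnc-/-. The groups did not overlap, and the mean was 0.593 times that of WT (50.8 ± 7.14 against 30.1 ± 2.42 CPM; SD, n = 3 and 4). Its log2 fold change was -0.75 (SE 0.14), -0.57 (SE 0.17) with WT library 1 alone and -0.46 (SE 0.22) with the covariate. Prpf4 (ENSMUSG00000066148), across the shared start region, was at 31.2, 24.4 and 27.6 CPM in WT and 30.5, 31.5, 34.7 and 30.7 CPM in Tnc-/-. The groups overlapped, and the log2 fold change was 0.20 (SE 0.14), with -0.07 (SE 0.23) under the covariate. In both head-to-head pairs the 2 genes thus had fold changes of opposite sign in the fit of all libraries, and the sign of Prpf4 turned with the covariate and with library totals.

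Of the 15 other genes of the anaphase-promoting complex and its activators, 2 were higher and 1 lower, with a median of 0.12 (-0.11 with library totals). The higher genes were the activators Fzr1 (1.08, SE 0.20, adjusted p = 0.008368) and Cdc20 (1.07, SE 0.22, adjusted p = 0.01076). With WT library 1 alone and with the covariate 0 of 15 were called (edgeR; 3 and 1 at an unadjusted p under 0.05), and without WT library 1 there were 9 calls. The fold change of Cdc20 was then about as large, at 1.04 (SE 0.29) with WT library 1 alone and 1.05 (SE 0.39) with the covariate, whereas that of Fzr1 was 0.75 (SE 0.22) and 0.54 (SE 0.28). Of 16 other U4/U6 and tri-snRNP proteins, 3 were higher and 0 lower (edgeR; 8 at an unadjusted p under 0.05), with a median of 0.34. Among these, Sart1 (0.92, SE 0.16, adjusted p = 0.007533) and Sart3 (0.68, SE 0.17, adjusted p = 0.01887) act in assembly of the tri-snRNP and recycling of U4/U6, and 1 gene of the list was called with WT library 1 alone. With the covariate 0 of 16 were called (edgeR; 2 at an unadjusted p under 0.05), with a median of -0.03, and without single libraries 1 to 12, with 12 without WT library 1.

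Zfp37 (ENSMUSG00000028389), the farthest from Tnc, had 93, 255 and 287 counts in WT and 72, 51, 56 and 58 in Tnc-/-. Its levels were 4.99, 16.9 and 17.4 CPM in WT and 2.66, 2.84, 3.14 and 3.03 CPM in Tnc-/-. The Tnc-/- libraries were close together, while WT libraries 2 and 3 stood 1.69 above WT library 1 on the same log2(CPM + 0.5) scale. The log2 fold change of -2.17 (SE 0.45) was -0.78 (SE 0.35) with WT library 1 alone and -0.21 (SE 0.44) with the covariate.

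Over the 10 genes, all passed the filter on low counts. By the threshold used for all genes, 5 would be called higher and 3 lower, beside the 29.0% called of all genes tested, and 6 lay without overlap above WT and 3 below, beside 17.7% and 17.4% of all genes. Since the list was drawn up from this contrast, nothing is read from these counts. Leaving out Orm2, whose fitted value has no measured rank, the order by log2 fold change among the higher genes was Alad, Hdhd3, Fkbp15, Pole3, Slc31a2 and Prpf4. Alad and Hdhd3 differed by less than their SE, and Fkbp15, Pole3 and Slc31a2 by less than the largest SE among them.

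**Figure D3:**
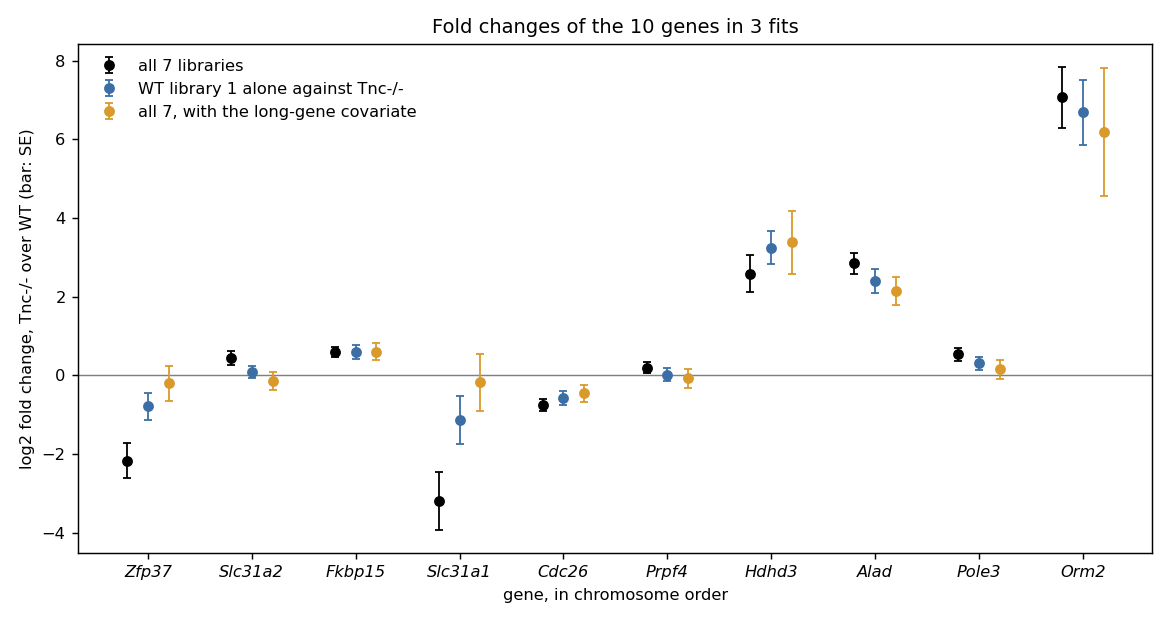
Log2 fold change of Tnc-/- over WT (vertical axis; bars are the SE) of the 10 genes in chromosome order, in the fit of all 7 libraries (black), with WT library 1 alone (blue) and with the long-gene covariate (orange). Alad, Hdhd3, Fkbp15 and Cdc26 keep their sign and lie at least 1 SE from 0 in all 3 fits, whereas Zfp37 and Slc31a1 move to near 0 with the covariate; Orm2, nearly uncounted in WT, had to differ, and its fitted values are no bounds.

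The other genes near Tnc were taken by position alone. Within 2 Mb, GENCODE M21 places 61 identifiers besides Tnc, of which 28 were tested, 18 of them outside the list of 10. Of these 18 genes, 5 were higher and 4 lower (50%), with a median log2 fold change of -0.22. The share called was 37.5% of 16 genes at 2 to 5 Mb, 35.5% of 31 at 5 to 10 Mb, 29.2% of 96 at 10 to 20 Mb and 28.8% of 16375 on other chromosomes. Of the genes at 2 to 5 Mb 2 were higher and 4 lower, of those at 5 to 10 Mb 11 were lower, and of those at 10 to 20 Mb 3 were higher and 25 lower. No test of these shares was made. Outside the side of the 10 genes only 3 were tested. A processed transcript whose span overlaps that of Tnc was not called, and the 2 on the far side were lower.

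The 5 higher neighbours lie together between 0.373 and 0.625 Mb from Tnc, around Orm2. They are Col27a1, a fibrillar collagen gene of cartilage, Akna, a centrosomal AT-hook protein, Whrn, a scaffold protein of hair cells, Atp6v1g1, a subunit of the vacuolar proton pump, and Tmem268, a membrane protein. Akna had 29.6, 17.8 and 19.1 CPM in WT and 74.9, 50.9, 65.2 and 58.4 CPM in Tnc-/- (1.49, SE 0.22, adjusted p = 0.006704). Col27a1 had 97.5, 76.2 and 77.6 CPM in WT and 137, 129, 155 and 188 CPM in Tnc-/- (0.86, SE 0.17, adjusted p = 0.009541). Whrn rose by 0.82 (SE 0.24), Tmem268 by 0.59 (SE 0.19) and Atp6v1g1 by 0.58 (SE 0.13), with adjusted p of 0.03368, 0.04443 and 0.01366. Over 19 alternatives the call was lost in 13 for Whrn, in 15 for Tmem268 and in 5 for Atp6v1g1. In all 5 every Tnc-/- library lay above every WT library.

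The 4 lower neighbours were Wdr31, Zfp618, Pappa and Astn2. Wdr31, which lies between Prpf4 and Hdhd3, had 2.58, 29.9 and 22.7 CPM in WT and 0.501 to 1.41 CPM in Tnc-/- (-4.21, SE 0.78, adjusted p = 0.0084). Zfp618 had 8.16, 47.5 and 36.9 CPM in WT and 9.74 to 11.1 CPM in Tnc-/- (-1.55, SE 0.47, adjusted p = 0.0392). On the far side, Pappa (-1.88, SE 0.39, adjusted p = 0.01051) and Astn2 (-3.90, SE 0.75, adjusted p = 0.009477) lie 1.08 and 1.33 Mb from Tnc. All 4 were highest in WT libraries 2 and 3, as Slc31a1 and Zfp37 were. The nearest genes on the side of the 10, Tnfsf8 (-0.98, SE 0.51, adjusted p = 0.1753) and Tnfsf15 (-0.71, SE 0.49, adjusted p = 0.299), were not called. With WT library 1 alone, 1 of 19 genes was called, beside 4.45% of all genes. It was Akna (1.07, adjusted p = 0.02337), while 8 had an unadjusted p under 0.05. With the covariate 0 of 18 were called (edgeR; 2 at an unadjusted p under 0.05), beside 1.94% of all genes. The fold change of Whrn did not shrink, at 0.89 (SE 0.27) with WT library 1 alone and 0.86 (SE 0.42) with the covariate, while with the covariate that of Akna was 0.83 (SE 0.28) and that of Col27a1 0.51 (SE 0.27). Tmem268, with WT library 1 alone and with the covariate, was at 0.35 and 0.22 and Atp6v1g1 at 0.38 and 0.30. Of the lower genes, Wdr31 was at -1.38 and -0.25, Pappa at -0.65 and -0.06 and Zfp618 at 0.36 and 1.17 in these fits, so Zfp618 turned sign. Astn2 was at -0.82 with WT library 1 alone and 0.40 with the covariate. Astn2 spans 1024 kb and so is among the genes over 300 kb that define the covariate. Its value with the covariate is therefore not independent of its own level.

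**Figure D4:**
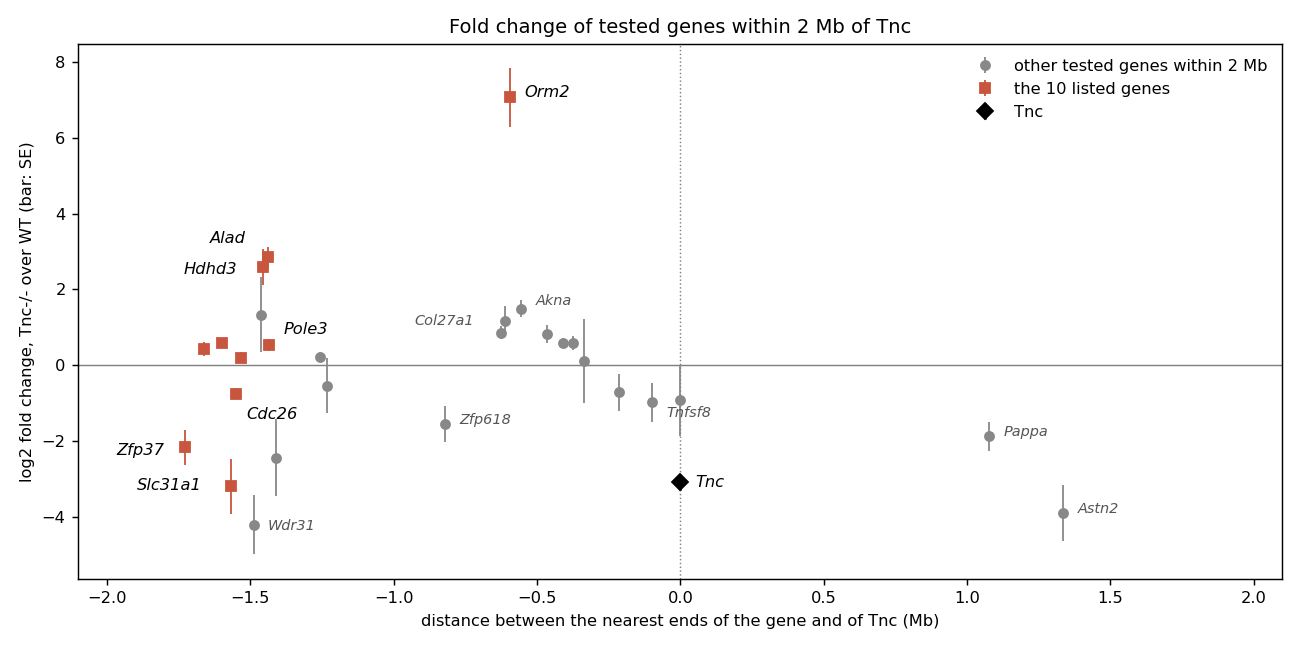
Log2 fold change of Tnc-/- over WT (vertical axis; bars are the SE) against the distance in Mb between the nearest ends of a gene and of Tnc (horizontal axis; negative values are the side of the 10 genes), for the 28 tested genes within 2 Mb and Tnc. The 10 genes are red squares, other genes grey circles and Tnc a black diamond. Genes with raised and lowered levels lie side by side between 1.43 and 1.73 Mb. The 5 neighbours called higher in the fit of all libraries lie between 0.373 and 0.625 Mb, and with the long-gene covariate 0 of 18 other genes were called.

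The genes most like Alad and Hdhd3 in profile lay on other chromosomes. Likeness was the Euclidean distance between centred log2(CPM + 0.5) profiles over the 7 libraries, among the 12344 genes whose mean reached 5 CPM, and such profiles share the group difference and the libraries. For Alad the nearest were Arhgap21 (distance 0.687, chromosome 2), Tbx6 (0.880, chromosome 7) and Acin1 (0.923, chromosome 14), where the median over all genes was 3.70. Arhgap21, a GTPase-activating protein, had 150.2, 114 and 134 CPM in WT and 1086, 913, 1247 and 951 CPM in Tnc-/-. For Hdhd3 the nearest were Irs1 (1.08, chromosome 1), Acin1 (1.13) and Il31ra (1.24, chromosome 13), with a median of 3.21 over all genes. The log2 fold changes of these 5 genes were 2.98 (SE 0.20) for Arhgap21, 2.53 (SE 0.45) for Tbx6, 2.35 (SE 0.15) for Acin1, 1.93 (SE 0.18) for Irs1 and 2.33 (SE 0.27) for Il31ra. Because likeness includes the group difference, fold changes of this size follow from the choice.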

How the data were processed

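RNA of 7 whole shoulder joints was sequenced from poly(A)-selected libraries (NEBNext Ultra), 1 file of raw counts per gene and library. Per the submitters' processing notes, FastQC 0.11.9, HISAT2 2.2.1, HTSeq 2.0.2 and DESeq2 1.38.3 were used, with GRCm39 (mm39); which step used which, and the strand setting, are not given in the sources used here. The deposited counts are whole reads per gene, not normalised. WT files list 56980 identifiers and Tnc-/- files 56941, of which the 56854 in all files were used; 5 rows of the Tnc-/- files name no gene, held 30.1 to 32.7% of the listed reads and were left out. Of 213 identifiers in 1 set of files only, 125 were placed by GENCODE M21, none within 2 Mb of Tnc; 1 from the WT and 87 from the Tnc-/- files could not be placed. Replicate numbers were given in the labels or in accession order. Whether the mice of a group were independent is not stated, so p-values measure the spread between these samples.

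Tests across genes used edgeR 4.0.16 (R 4.3.3, filterByExpr, TMM, robust quasi-likelihood F test, genotype as the 1 term, Benjamini-Hochberg threshold 0.05). They took all 17791 genes that passed the filter. The fit was tested on simulated data with the same spread in both groups, so that run does not cover the unequal spread given below. Each SE is the log2 fold change over the root of its F value. CPM is the count over the TMM-scaled sum of the library's counts in tested genes, in M. Alternatives were DESeq2 1.42.0 (Benjamini-Hochberg or Bonferroni), limma 3.58.1 voom, other scalings and filters, genes without exon overlap, leaving out each library, WT library 1 alone (assumed to vary like Tnc-/-, where the biological CV was 0.171, against 0.593 over the 3 WT libraries, so its SE and p rest on the smaller spread), the long-gene level as a covariate, a replicate block and windows of 1 and 5 Mb. Positions are from GENCODE M21 (GRCm38), which holds 98.2% of tested genes and is not the build of the files, so only distances are given; start-site windows are RefSeq GRCm38.p6, and transcripts were compared with BLAST 2.17.0. Named genes are Tnc, the 10 genes, the 2 nearest tested coding genes on each side of Tnc, called genes within 2 Mb, 2 called genes with the smallest p per partner list and the 3 most alike genes for Alad and for Hdhd3. For 1 gene so named no values are given. Alas1, Alas2, Fech, Urod, Orm1, Orm3 and the marker genes at 0 were added after their values were seen. The genes, the 7 partner lists, the 8 marker lists and the tests were chosen with earlier results of these data known.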

Additional observations from a re-analysis of the deposited data

Results flagged for a closer look

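Among 40 named genes examined over the 4 Tnc-/- libraries, 1 had a library apart from the others: Alad in Tnc-/- library 1, at 421 CPM where the other Tnc-/- libraries had 273, 285 and 261 CPM. Its distance from the next library was 0.852 of the group's whole range, past Dixon's 95% value for 4 samples, which chance passes in about 1 of 20 groups. Without that library the Alad fold change was 2.64, the lowest among the fits that leave out 1 library. That library was also the highest of its group in Urod and Ppox and in the summed erythroid markers.

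The Tnc-/- files hold a row of reads assigned to more than 1 gene, which took 11.5% of the listed reads on average. WT files have no such row, so the share in WT was not analysed here.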

How the results depend on the processing

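Genes called over the whole table numbered 5159, and 1661 with DESeq2 and Bonferroni adjustment, 973 with limma voom (707 higher, 266 lower), 825 with WT library 1 alone, 346 with the long-gene covariate and 2229 to 14113 without single libraries, highest without WT library 1. Library totals gave 951 higher and 4541 lower genes. Within 2 Mb of Tnc the count of 9 became 3 with DESeq2 and Bonferroni adjustment, 3 with limma voom, 1 with WT library 1 alone, 0 with the covariate, 15 in the 5 Mb window and 5 to 17 without single libraries. For partner genes the count of 24 became 3 with DESeq2 and Bonferroni adjustment, 6 with limma voom and 14 among genes without exon overlap. It was 2 with the covariate and 5 to 52 without single libraries. Cox17, which had to differ, is in the 24 and in the 2.

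Same-numbered libraries did not pair: their deviations correlated at -0.04, 0.06 and -0.02 over genes. With the replicate block 1932 genes were called, 4 near Tnc and 14 partner genes.

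Over at most 19 alternatives Alad ranged from 2.15 to 3.22, Hdhd3 from 2.32 to 3.38, Fkbp15 from 0.35 to 0.69, Pole3 from 0.16 to 0.75, Cdc26 from -1.0 to -0.46, Zfp37 from -2.47 to -0.21 and Slc31a1 from -3.58 to -0.18. Signs turned for Prpf4 with library totals (-0.0401) and the covariate (-0.0746) and for Slc31a2 with the covariate (-0.14). They also turned for Tnfsf8 (0.0707 with WT library 1 alone, 0.60 with the covariate), Zfp618 (0.36 and 1.17) and Hpx (0.82 and 2.41). Astn2 turned with the covariate (0.40), a level that Astn2 itself helps to set. The cause was not tested. Depth limits Orm2 in WT, Hdhd3 and Slc31a1 most, with 50 counts or fewer in at least 1 library each.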
